A study of Homo sapiens with 5 samples.

Results

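Cells show fragments of their own proteins on major histocompatibility complex (MHC) class I molecules, and the genes of this route were followed in SW620, a human colon carcinoma cell line. The set held 9 of the 25343 genes in the count table, chosen by symbol with earlier results of these data known. They were the class I heavy chain genes HLA-B, HLA-C, HLA-E and HLA-F, the light chain gene B2M, the peptide loading genes TAP1, TAP2 and TAPBP, and the transactivator gene NLRC5. All 9 had enough reads to be tested. Stranded mRNA sequencing gave 5 libraries, called pos (2 libraries, replicates 1 and 3) and neg (3 libraries, replicates 1, 2 and 3). Every library came from SW620 cells that carried tet-MUC1shRNA, a doxycycline-switched short hairpin RNA against the transmembrane mucin gene MUC1. Cells received either vehicle or doxycycline, and the labels do not say which of these pos and neg stand for, so both names are kept. Libraries with doxycycline and a control hairpin are not analysed here. The labels mention triplicate culture without tying each library to a culture of its own, so p-values measure the spread between these libraries, which may be technical. The 2 pos libraries held 27 and 13 reads of MUC1 itself, while neg replicates 1, 2 and 3 had 176, 252 and 218 (log2 fold change -3.07, SE 0.34, edgeR adjusted p = 0.0270).

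A class I molecule is a heavy chain, beta-2-microglobulin and a short peptide. Proteasomes cut proteins into peptides, the TAP1 and TAP2 transporter carries them into the endoplasmic reticulum, and tapasin (TAPBP) holds an empty class I molecule beside the transporter until a peptide binds. CD8 T cells read HLA-B and HLA-C with their peptides, and natural killer cells read HLA-C and HLA-E. NLRC5 is a coactivator without a DNA-binding domain of its own. It joins factors bound to a conserved promoter module, whose X2 and Y boxes are bound by CREB-family and NF-Y factors, and interferon acts on the same promoters through interferon-stimulated response elements (ISRE). Loss of this route is a known way for colorectal cancers to escape T cells.

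Promoter sequences from RefSeq (GRCh38.p14) were matched for 7 of the 9 genes, and the 200 bases before the start are shown because they carry the letters through which NLRC5 and interferon are known to act. They are reference sequences and not the alleles of SW620. Capitals mark TGACG (X2-type), CCAAT (Y-type, ATTGG on the other strand), GAAA repeated after any 2 bases (ISRE-type) and GAANNGAAA (the shorter form, in HLA-B, HLA-C and TAP2), searched on both strands, and where matches overlap the capitals run together.
HLA-B (chr6:31357180-31357379, minus strand): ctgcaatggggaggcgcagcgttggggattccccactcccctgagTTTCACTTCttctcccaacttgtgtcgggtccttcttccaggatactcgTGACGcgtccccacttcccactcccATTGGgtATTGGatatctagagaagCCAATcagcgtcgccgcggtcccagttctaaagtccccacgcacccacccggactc
HLA-C (chr6:31272093-31272292, minus strand): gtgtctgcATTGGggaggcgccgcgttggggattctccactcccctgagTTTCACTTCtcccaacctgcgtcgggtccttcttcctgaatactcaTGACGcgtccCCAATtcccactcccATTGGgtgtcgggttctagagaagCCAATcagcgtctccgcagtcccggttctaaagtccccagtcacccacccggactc
HLA-F (chr6:29723234-29723433, plus strand): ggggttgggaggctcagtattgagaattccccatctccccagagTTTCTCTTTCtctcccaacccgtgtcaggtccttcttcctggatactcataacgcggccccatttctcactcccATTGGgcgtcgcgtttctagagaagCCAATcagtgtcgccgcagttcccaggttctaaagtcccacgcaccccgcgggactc
B2M (chr15:44711317-44711516, plus strand): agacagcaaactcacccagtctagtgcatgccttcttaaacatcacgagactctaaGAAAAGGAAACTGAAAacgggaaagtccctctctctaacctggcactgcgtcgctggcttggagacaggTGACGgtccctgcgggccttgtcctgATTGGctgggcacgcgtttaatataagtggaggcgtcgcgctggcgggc
TAP1 (chr6:32853705-32853904, minus strand): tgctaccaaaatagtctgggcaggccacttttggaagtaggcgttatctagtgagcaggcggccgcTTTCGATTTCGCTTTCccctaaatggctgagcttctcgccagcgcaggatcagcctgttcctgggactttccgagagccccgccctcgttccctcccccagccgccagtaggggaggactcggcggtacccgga
TAP2 (chr6:32838740-32838939, minus strand): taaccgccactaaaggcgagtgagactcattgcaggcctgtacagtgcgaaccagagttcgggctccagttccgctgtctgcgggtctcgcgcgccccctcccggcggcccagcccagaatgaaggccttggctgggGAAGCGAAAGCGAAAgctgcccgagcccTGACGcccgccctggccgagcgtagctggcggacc
TAPBP (chr6:33314079-33314278, minus strand): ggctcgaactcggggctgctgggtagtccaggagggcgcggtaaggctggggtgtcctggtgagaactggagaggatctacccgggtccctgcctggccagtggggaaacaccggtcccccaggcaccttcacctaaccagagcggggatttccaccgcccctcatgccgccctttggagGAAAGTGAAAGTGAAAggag
In HLA-B and HLA-C TGACG was followed on the gene's strand by ATTGG after 20 bases, and in B2M after 21 bases. A pair with a gap of 15 to 25 bases, a range chosen after these sequences were seen, occurred in the 250 bases before the start of 0.249% of 27305 promoters. HLA-F had the Y-type letters without TGACG. The 3 loading genes had no such pair, and each had the ISRE-type repeat, as had HLA-F and B2M, which 3.07% of promoters held. The shorter form occurred in 6.77% of promoters, TGACG in 21.7% and CCAAT in 33.0%. GGG and CC with 5 bases between, a loose form of the NF-kB site, were in 53.7% of promoters and are not marked. These are letter matches in a reference and do not show binding.

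**Figure D1:**
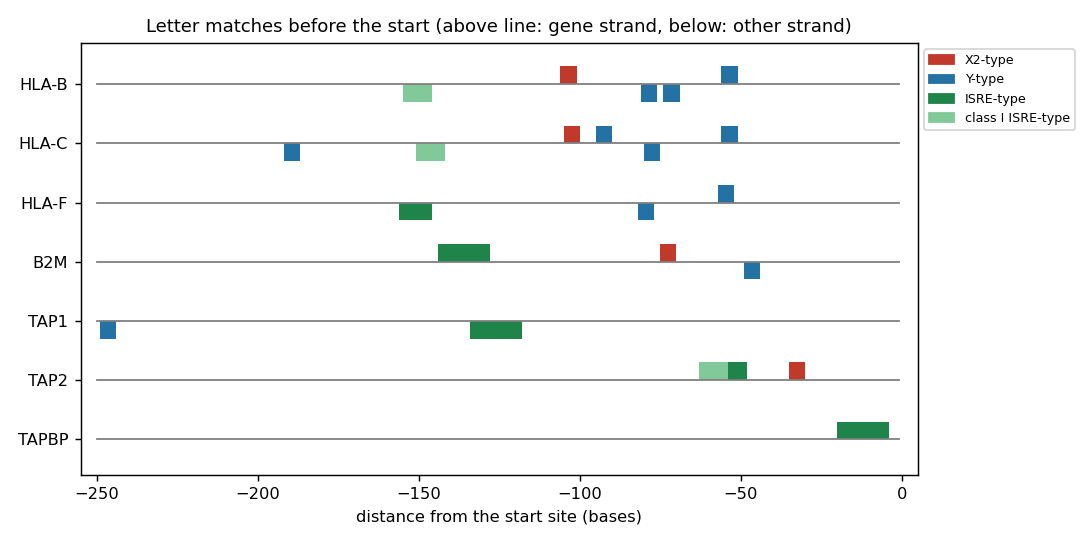
Positions of the marked letters in the 250 bases before the start of 7 class I route genes; the x axis is distance from the start in bases, and boxes above or below a line are matches on the gene's strand or the other strand. HLA-B, HLA-C and B2M share an X2-type match followed by a Y-type match, and ISRE-type matches lie in B2M, HLA-F, TAP1, TAP2 and TAPBP.

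Between 10888704 and 14137678 reads were counted in genes per library. Levels below are CPM (reads of a gene per 1e6 reads of the library, after TMM scaling of library sizes) unless another scale is named. The 2 pos libraries differed more from each other than neg libraries did (Pearson r of log2 CPM across genes 0.912 against 0.983 to 0.993, where genes are not independent replicates). Levels also moved with transcript length. In the shortest of 5 equal groups of tested genes (up to 1724 nt) the fitted trend had medians of -0.015 and 0.79 for pos replicates 1 and 3, while the neg medians were -0.49 to -0.24, on the log2 scale. The 9 genes are therefore given with and without the trend. Colon epithelial markers were present at uneven levels, with 9 of 10 tested and summed levels of 7912 and 16433 CPM in pos and 6070 to 7896 CPM in neg. The keratin genes KRT8, KRT18 and KRT19 made up most of these sums. Other listed markers differed, with CDH1 lower in pos (log2 fold change -1.68, edgeR adjusted p = 0.0434) and CDX2 higher (2.18, edgeR adjusted p = 0.0337). CDX1 had 1 read, in neg replicate 2, and KRT20 had 0 and 4 reads in pos and 16, 31 and 23 in neg. Of 10 leukocyte markers, 8 had 10 reads or fewer in every library and PTPRC, CD3E, CD2 and MS4A1 were among those with none, and the list summed to 36.0 and 48.6 CPM in pos and 44.7 to 54.3 in neg. CD68, which many cell types express, made up most of that sum. Listed fibroblast markers summed to 20.8 and 16.1 CPM in pos and 26.8 to 31.1 in neg, with COL1A1 lower in pos (-1.36, edgeR adjusted p = 0.0340). Endothelial markers summed to 0.890 and 1.48 CPM in pos and 2.73 to 4.02 in neg.

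With the length trend in place, the classical heavy chain genes showed no shift of both pos libraries away from neg. HLA-B, on chromosome 6 from 31353872 to 31367067 (minus strand, GRCh38, GENCODE 44), had 62.5 and 128 CPM in pos replicates 1 and 3, against 119, 103 and 79.9 CPM in neg replicates 1, 2 and 3. Pos replicate 1 was the lowest of the 5 libraries and pos replicate 3 the highest, so the groups overlapped (log2 fold change -0.08 with SE 0.35, adjusted p = 0.888 in edgeR's quasi-likelihood test). After length removal HLA-B had 63.5 and 84.5 CPM in pos and 133, 123 and 105 CPM in neg. Both pos libraries then lay below every neg library, and the test did not pass (-0.70, SE 0.19, edgeR adjusted p = 0.0567). HLA-C, which presents peptides and is also the main class I ligand of killer cell inhibitory receptors, had 317 and 645 CPM in pos and 380, 344 and 270 CPM in neg. HLA-C lies on chromosome 6 from 31268749 to 31272130 (minus strand), and its difference was smaller than the spread of the pos pair (0.54, SE 0.34, edgeR adjusted p = 0.294).

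With the length trend in place, pos and neg also overlapped for both nonclassical heavy chain genes of the set. HLA-G, a further such gene, was listed with the class I-like genes and overlapped too, at 18 and 9 reads in pos and 27, 24 and 14 in neg. HLA-E, which shows leader peptides of other class I chains to the receptor NKG2A, had 163 and 275 CPM in pos and 220, 200 and 193 CPM in neg (0.10, SE 0.26, edgeR adjusted p = 0.809). It lies on chromosome 6 from 30489509 to 30494194 (plus strand). HLA-F, which can reach the surface without a peptide, was the lowest of these 4 heavy chain genes at 5.74 and 7.38 CPM in pos and 9.44, 6.66 and 6.27 CPM in neg (-0.19, SE 0.30, edgeR adjusted p = 0.665). For all 4 heavy chain genes of the set pos replicate 1 lay below pos replicate 3. After length removal HLA-C was at -0.084, HLA-E at -0.060 and HLA-F at -0.77, and edgeR called none of these (adjusted p = 0.762, 0.851 and 0.0824). HLA-F then had 5.83 and 4.78 CPM in pos and 10.6, 8.07 and 8.32 CPM in neg. Both pos libraries thus lay below every neg library for HLA-F in that fit. HLA-F spans 29722775 to 29738528 on chromosome 6 (plus strand), and HLA-F-AS1 overlaps it on the other strand. Reads of HLA-F-AS1, 19 and 22 in pos and 53, 44 and 32 in neg, can be told from those of HLA-F only by strand, which the counting may not have used. Reads common to several HLA genes are likewise uncertain.

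B2M rose in pos. It encodes the light chain that every class I heavy chain needs to fold and leave the endoplasmic reticulum. It had 5711 and 5541 reads in pos replicates 1 and 3 and 3307, 3750 and 3139 reads in neg replicates 1, 2 and 3, or 462 and 584 CPM in pos against 231, 236 and 252 CPM in neg. Both pos libraries lay above every neg library, and the rise was 2.18-fold (log2 fold change 1.13, SE 0.19, edgeR adjusted p = 0.0381). B2M lies on chromosome 15 from 44711358 to 44718851 (plus strand), and its canonical transcript of 943 nt is the shortest of the 9. The trend at that size was -0.0045 and 0.94 for pos replicates 1 and 3, against -0.32, -0.45 and -0.59 in neg replicates 1, 2 and 3. Once the trend was removed B2M stood at 464 and 303 CPM in pos and 288, 322 and 380 CPM in neg, so the groups overlapped and the call ended (0.22, SE 0.22, edgeR adjusted p = 0.514). Scaling by library size alone put B2M at 0.71 (edgeR adjusted p = 0.0741) and the median over tested genes at -0.41 in place of -0.05.

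**Figure D2:**
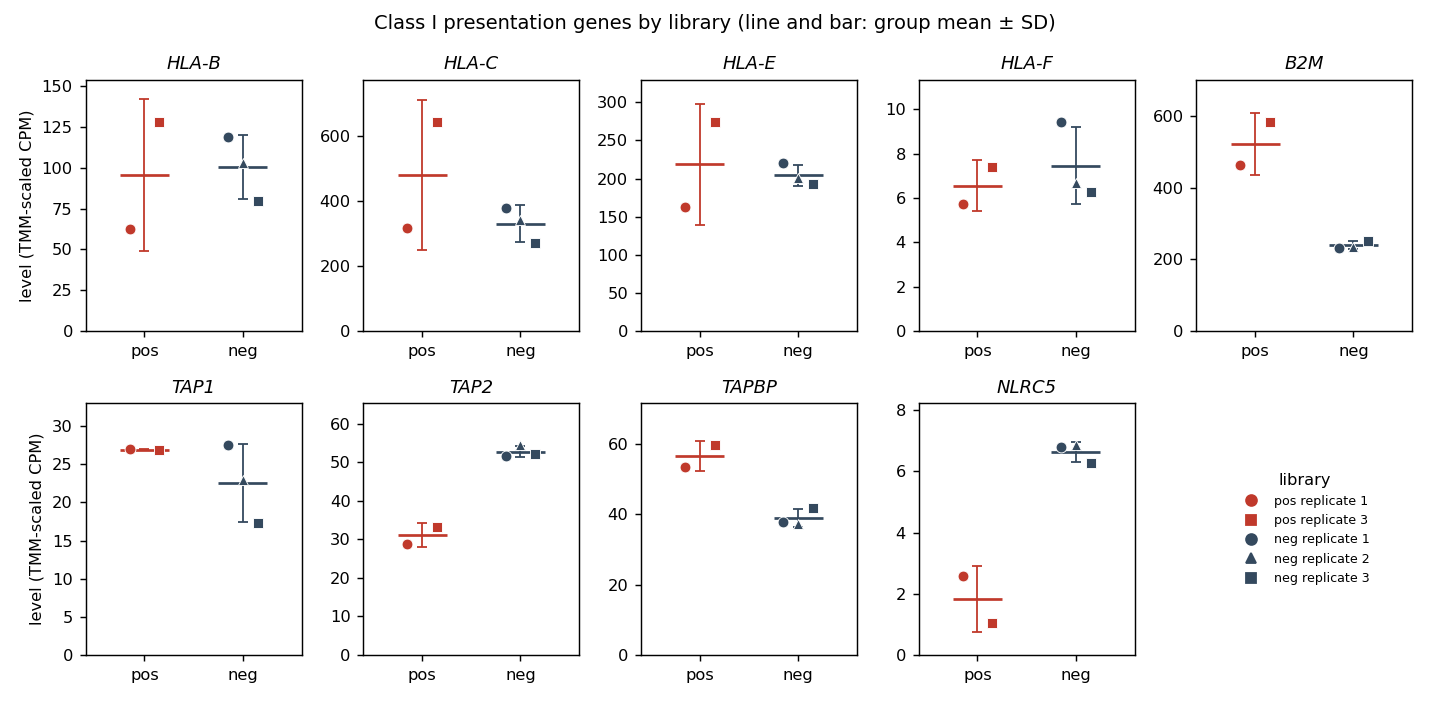
Levels of the 9 genes by library, in TMM-scaled CPM on axes that start at 0, with pos (red) left of neg (dark blue); each point is a library, each line a group mean and each bar 1 SD (n = 2 pos and 3 neg). B2M and TAPBP sit higher in both pos libraries, TAP2 and NLRC5 lower in both, and the heavy chain genes and TAP1 overlap between groups.

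TAP1, TAP2 and TAPBP did not pass the edgeR test. TAP1 had 26.9 CPM in each pos library and 27.5, 22.9 and 17.3 CPM in neg replicates 1, 2 and 3. The pos values lay inside the neg range (log2 fold change 0.25, SE 0.25, edgeR adjusted p = 0.491), and the log2 fold change was 0.17 after length removal (edgeR adjusted p = 0.598). TAP1 lies on chromosome 6 from 32845209 to 32853816 (minus strand) and overlaps PSMB9 on the other strand.

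TAP2, the other subunit of the transporter, had 28.9 and 33.3 CPM in pos and 51.7, 54.4 and 52.1 CPM in neg. Both pos libraries lay below every neg library, yet the test did not pass in edgeR (log2 fold change -0.76, SE 0.19, adjusted p = 0.0562), while DESeq2 called it (-0.73, adjusted p = 0.0281). TAP2 spans 32821833 to 32838739 on chromosome 6 (minus strand) with a canonical transcript of 5643 nt. After removal of the length trend it had 27.1 and 51.0 CPM in pos and 45.04, 45.2 and 40.5 CPM in neg, and the groups overlapped (-0.17, SE 0.27, edgeR adjusted p = 0.689).

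TAPBP, the tapasin gene, had 53.5 and 59.6 CPM in pos and 37.9, 37.2 and 41.8 CPM in neg. The groups did not overlap, and the test did not pass (log2 fold change 0.54, SE 0.18, edgeR adjusted p = 0.102). TAPBP lies on chromosome 6 from 33299694 to 33314284 (minus strand), with a transcript of 3450 nt. Length removal left it at 52.3 and 66.3 CPM in pos and 35.7, 35.2 and 39.4 CPM in neg, and it passed (0.69, SE 0.17, edgeR adjusted p = 0.0420). Scaled by library size alone it was at 0.14.

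NLRC5 fell in pos. It had 32 and 10 reads in pos replicates 1 and 3 and 97, 109 and 78 reads in neg replicates 1, 2 and 3, or 2.59 and 1.05 CPM in pos against 6.78, 6.85 and 6.27 CPM in neg. Both pos libraries were lower than every neg library, and the fall was 3.56-fold (log2 fold change -1.83, SE 0.41, edgeR adjusted p = 0.0487). NLRC5 lies on chromosome 16 from 56989485 to 57083531 (plus strand), and its canonical transcript of 6781 nt in 49 exons is the longest of the 9. Without the length trend it stood at 2.41 and 1.78 CPM in pos and 5.77, 5.46 and 4.52 CPM in neg, and the fall passed at a smaller size (-1.28, SE 0.29, edgeR adjusted p = 0.0372). Leaving out a pos library gave -2.60 (replicate 3 alone) or -1.38 (replicate 1 alone). Scaled by library size alone it was at -2.14 (edgeR adjusted p = 0.0702).

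In all, 1 of the 9 genes rose and 1 fell, against 9.20% of 13604 tested genes called (5.06% higher and 4.13% lower). The median log2 fold change was 0.10 for the 9 genes and -0.05 for all tested genes, but -0.084 and 0.020 after length removal and -0.35 and -0.41 by library size alone. Pos and neg did not overlap for 4 of the 9 (B2M and TAPBP higher, TAP2 and NLRC5 lower), against 56.0% of tested genes (26.7% higher and 29.3% lower). DESeq2 called B2M, TAP2 and NLRC5, 3 of the 9, against 23.2% of tested genes (13.2% higher and 10.0% lower). Scaling by library size alone called 0 of the 9 in edgeR, against 4.45% (1.09% higher and 3.37% lower). The edgeR calls depended on each neg library. Without neg replicate 1, 2 or 3 edgeR called 0 genes of any kind, while 3033, 2510 and 2607 genes had an unadjusted p under 0.05. DESeq2 in the same fits called B2M without neg replicate 1 (adjusted p = 0.0455) and without neg replicate 3 (adjusted p = 0.0353) but not without neg replicate 2 (adjusted p = 0.0600), and did not call NLRC5 (adjusted p = 0.0824 to 0.108). After length removal 14.0% of tested genes were called (7.44% higher and 6.60% lower), and of the 9 these were TAPBP (higher) and NLRC5 (lower). Removal of the GC trend as well called 26.1% (13.5% higher and 12.6% lower), with TAPBP higher and HLA-B and NLRC5 lower.

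**Figure D3:**
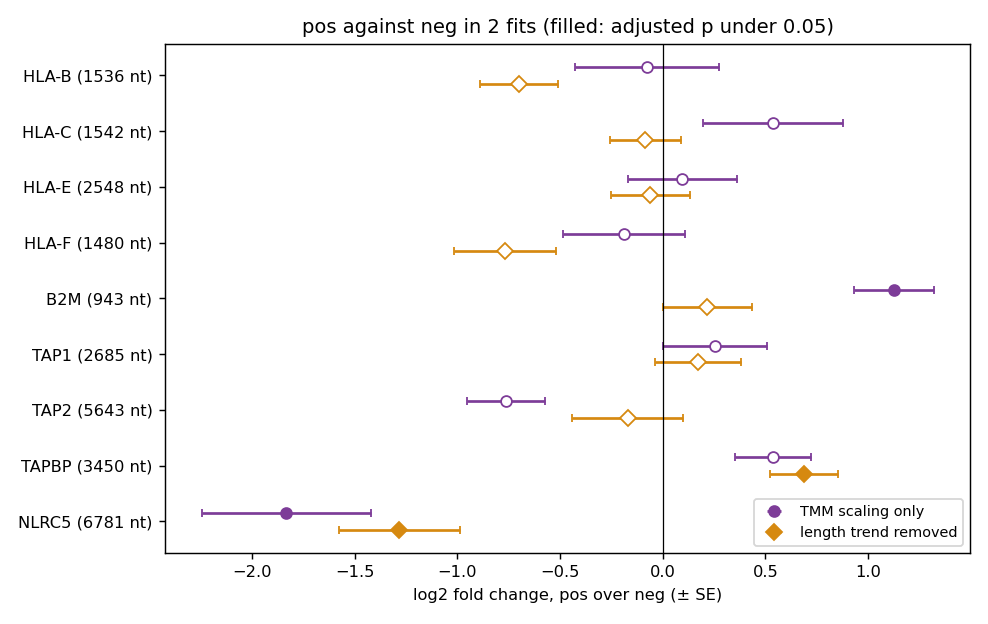
log2 fold changes of the 9 genes, pos over neg, with SE (x axis) in the edgeR fit with TMM scaling (circles) and with each library's length trend removed (diamonds); filled symbols have an adjusted p under 0.05, and transcript lengths stand beside the names. B2M is at 1.13 with TMM scaling and at 0.22 without the trend, while NLRC5 stays below -1 in both fits.

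Ratios of reads within a library are free of library scaling, and HLA-B and HLA-C have transcripts of nearly the same length (1536 and 1542 nt). HLA-B had 0.197 and 0.199 reads per HLA-C read in pos replicates 1 and 3, against 0.312, 0.299 and 0.296 in neg replicates 1, 2 and 3. This ratio was lower in both pos libraries, which lay close to each other here but not in the level of either gene. In CPM 56.0% of tested genes did not overlap between groups. The ratio was chosen after the values were seen, and reads common to several HLA genes are uncertain. As a share of all HLA-B, HLA-C, HLA-E and HLA-F reads, HLA-B made up 11.4% (exact binomial 95% interval 10.7% to 12.2%) in pos replicate 1 and 12.1% (11.5% to 12.8%) in pos replicate 3. In neg replicates 1, 2 and 3 it made up 16.3% (15.6% to 17.0%), 15.7% (15.04% to 16.4%) and 14.5% (13.7% to 15.4%). The intervals cover counting error only, since PCR copies of a molecule were counted as reads. The HLA-C share was 57.8% and 61.1% in pos and 52.2%, 52.6% and 49.1% in neg. An exact two-sided permutation test over libraries gave p = 0.1 for the HLA-B share and for HLA-B per HLA-C, the smallest p that 10 arrangements allow (0.14 after Benjamini-Hochberg adjustment over 7 ratios). The test therefore could not have passed for either and decides nothing here. After length removal the level of HLA-B was 63.5 and 84.5 CPM in pos and 133, 123 and 105 CPM in neg (log2 fold change -0.70, SE 0.19, edgeR adjusted p = 0.0567), and with a GC trend removed too it passed (-0.75, edgeR adjusted p = 0.00903).

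Ratios between partners of a complex were also set side by side. B2M had 0.843 and 0.554 reads per heavy chain read (the 4 genes summed) in pos replicates 1 and 3, against 0.318, 0.361 and 0.459 in neg replicates 1, 2 and 3. TAP1 had 0.933 and 0.807 reads per TAP2 read in pos and 0.531, 0.422 and 0.332 in neg. Neither ratio overlapped between groups, while in CPM 56.0% of tested genes did not overlap. The exact permutation test gave p = 0.1 for each ratio (0.14 adjusted). As 10 arrangements allow no p below 0.1, the test could not have passed either ratio and decides nothing here. In both ratios the gene with the shorter transcript was the one that gained, so the length trend moves with them and its part was not tested. The ratios other than the HLA-B share were chosen after the values were seen.

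**Figure D4:**
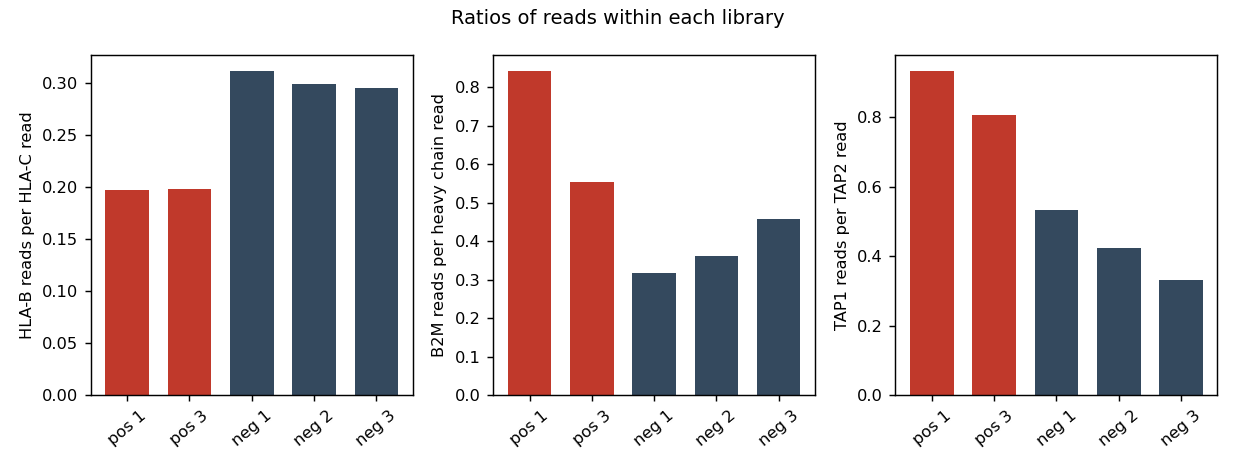
Reads of HLA-B per HLA-C read, of B2M per read of the 4 heavy chain genes summed, and of TAP1 per TAP2 read (y axes, from 0) in each library, with pos (red) left of neg (dark blue). HLA-B per HLA-C is near 0.20 in both pos libraries and near 0.30 in the 3 neg libraries.

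Per length, B2M and HLA-C were the most abundant of the 9 and NLRC5 the least. Dividing CPM by the canonical transcript length gave B2M 555 ± 91.5 CPM per kb in pos and 254 ± 11.8 in neg (SD, n = 2 and 3). HLA-C had 312 ± 151 CPM per kb in pos and 215 ± 36.2 in neg. The libraries of B2M and HLA-C did not overlap in pos but did in neg. HLA-E (85.9 ± 31.0 CPM per kb in pos and 80.3 ± 5.41 in neg) and HLA-B (62.1 ± 30.2 in pos and 65.4 ± 12.6 in neg) came next and overlapped in both groups. TAPBP followed with 16.4 ± 1.25 CPM per kb in pos and 11.3 ± 0.716 in neg. TAP1 had 10.0 ± 0.0160 CPM per kb in pos and 8.41 ± 1.90 in neg, and TAP2 had 5.51 ± 0.555 in pos and 9.35 ± 0.254 in neg. These subunits of 1 transporter were apart in pos and overlapped in neg. HLA-F had 4.43 ± 0.781 CPM per kb in pos and 5.04 ± 1.17 in neg, and NLRC5 0.269 ± 0.160 in pos and 0.978 ± 0.0470 in neg. With the union of all exons as the length HLA-C came before B2M in both groups, and the order was otherwise kept.

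The helpers of peptide loading moved in both directions. Of 9 tested genes, 1 rose and 1 fell, beside 9.20% called over all tested genes. Their median log2 fold change was -0.59, against 0.11 after length removal. The disulfide isomerase gene PDIA3, whose product ERp57 pairs with tapasin in the loading complex, had 418 and 425 CPM in pos and 761, 806 and 797 CPM in neg (-0.90, SE 0.19, edgeR adjusted p = 0.0447). The tapasin homologue gene TAPBPL, a peptide editor outside the loading complex, had 13.0 and 17.6 CPM in pos and 6.71, 7.29 and 7.39 CPM in neg (1.10, SE 0.23, edgeR adjusted p = 0.0453). TAPBPL did not pass once the length trend was removed (0.64, edgeR adjusted p = 0.0751). The lectin chaperone gene CANX, which holds new heavy chains, had 1139 and 428 CPM in pos and 1900, 1929 and 2053 CPM in neg, without passing (-1.32, SE 0.43, edgeR adjusted p = 0.0941). Beside 6.60% of all tested genes, 4 of the 9 fell after length removal. These were PDIA3, CANX, the peptide trimming gene ERAP1 and the chaperone gene CALR, the last pair named after its values were seen.

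Among the proteases that make the peptides, the immunoproteasome subunit gene PSMB8 rose. It had 52.5 and 121 CPM in pos and 27.8, 20.4 and 20.7 CPM in neg (log2 fold change 1.91, SE 0.38, edgeR adjusted p = 0.0420), and it passed with the length trend removed too (1.02, edgeR adjusted p = 0.0222). It was the gene that edgeR called among 5 immunoproteasome and activator genes, which have short transcripts (median 977 nt) and a median log2 fold change of 1.38, or 0.36 with the length trend removed. PSME1, an activator subunit, was at 186 and 423 CPM in pos and 134, 113 and 104 CPM in neg (edgeR adjusted p = 0.0630), and its log2 fold change was 1.38, or 0.36 after length removal. DESeq2 called 4 of the 5 higher, PSME1 among them (adjusted p = 0.00479). Over all tested genes 5.06% were called higher in edgeR and 13.2% in DESeq2, or 7.44% in edgeR after length removal. Of the 3 constitutive catalytic subunits that PSMB8 and its relatives replace, PSMB6 (1.56, SE 0.32) and PSMB7 (1.12, SE 0.22) rose and PSMB5 did not pass (0.58, SE 0.32), with edgeR adjusted p values of 0.0443, 0.0426 and 0.236. After length removal 0 of these 3 were called, and PSMB5 was at -0.33. Of 7 other listed peptidases edgeR called 0, with 1 at an unadjusted p under 0.05 and 0 called by DESeq2 or limma-voom. The most abundant, TPP2, was at -0.91 (SE 0.38), or -0.48 after length removal.

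Class I-like genes moved in both directions, with 3 of 13 tested genes higher and 2 lower, beside 5.06% higher and 4.13% lower over all tested genes. After length removal 4 were higher and 4 lower, beside 7.44% higher and 6.60% lower over all tested genes. The median of the 13 was then -0.18, against 0.40 with the trend in place. ULBP1 and ULBP2 encode stress-induced ligands of NKG2D, an activating receptor of natural killer cells. ULBP1 had 20.5 and 14.8 CPM in pos and 74.8, 82.5 and 98.9 CPM in neg, a 4.84-fold fall (log2 fold change -2.28, SE 0.26, edgeR adjusted p = 0.0270). ULBP2 had 5.50 and 6.64 CPM in pos and 20.3, 14.2 and 13.7 CPM in neg (-1.40, SE 0.29, edgeR adjusted p = 0.0441). Both also fell with the length trend removed (-2.20 and -2.05). The NKG2D ligand gene MICA, named after its value was seen, rose instead, at 11.2 and 9.28 CPM in pos and 4.82, 5.09 and 4.02 CPM in neg (1.14, SE 0.25, edgeR adjusted p = 0.0457), but not with the length trend removed (0.57, edgeR adjusted p = 0.264). Named likewise, the ligand gene MICB did not pass at first (0.86, SE 0.22, edgeR adjusted p = 0.0612). With the length trend removed MICB was called higher (0.67, edgeR adjusted p = 0.0482). In that fit ULBP3 and RAET1L were called lower (-0.86 and -1.66, edgeR adjusted p = 0.0360 and 0.0129).

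HFE, a class I-like protein that binds the transferrin receptor together with B2M, had 15.4 and 8.22 CPM in pos and 3.57, 3.58 and 2.97 CPM in neg (1.81, SE 0.33, edgeR adjusted p = 0.0390). AZGP1, a secreted class I-like glycoprotein, had 277 and 461 CPM in pos and 137, 128 and 119 CPM in neg (1.53, SE 0.26, edgeR adjusted p = 0.0376). Both rose with the length trend removed as well (2.21 for HFE and 0.73 for AZGP1). The neonatal Fc receptor gene FCGRT, whose product also pairs with B2M, was at 1.39 (SE 0.36) without passing (edgeR adjusted p = 0.0632), and at 0.73 after length removal.

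Genes upstream of the route and interferon targets were read beside the 9.20% of tested genes that edgeR called and the 23.2% that DESeq2 called. Of 12 tested promoter factors, among them the RFX and NF-Y subunits that NLRC5 joins, edgeR called 0, with 4 at an unadjusted p under 0.05, 1 called by DESeq2 and 0 by limma-voom. RELA, the most abundant of them, was at -0.22 (SE 0.22) and at 0.048 without pos replicate 1. Of 13 interferon signalling genes edgeR called 0, with 5 at an unadjusted p under 0.05, 4 called by DESeq2 and 0 by limma-voom, at a median log2 fold change of -0.39. After length removal edgeR called 1 of the 13 higher and 2 lower, beside 7.44% higher and 6.60% lower over all tested genes. The kinase gene JAK1 was at -1.52 (SE 0.42, edgeR adjusted p = 0.0677) and passed with the length trend removed (-1.15, edgeR adjusted p = 0.0298). Of 16 tested interferon targets 2 fell and 0 rose in edgeR, at a median of -0.53, while DESeq2 called 3 higher and 2 lower. With the length trend removed edgeR called 0 of the 16 higher and 3 lower. WARS, an interferon-induced gene that amino acid stress also induces, fell by 2.42 on the log2 scale (SE 0.21, edgeR adjusted p = 0.0261). The guanylate-binding protein gene GBP2 had 1.78 and 2.42 CPM in pos and 6.01, 5.15 and 6.27 CPM in neg (-1.47, SE 0.30, edgeR adjusted p = 0.0445), and did not pass with the length trend removed (-1.18, edgeR adjusted p = 0.0625). IFITM2, an antiviral membrane protein gene, was at 1.49 (SE 0.40, edgeR adjusted p = 0.0652), or 0.49 after length removal. A further 10 of the 26 listed targets had too few reads to be tested, and 6 of these had none.

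Surface turnover and class II genes added no call, beside 9.20% of tested genes called by edgeR and 23.2% by DESeq2. Of 4 tested genes of the machinery that removes class I from the surface, edgeR, DESeq2 and limma-voom each called 0 and 0 were at an unadjusted p under 0.05. WWP2, a ubiquitin ligase gene of that group, was at -0.08 (SE 0.18), and at 0.28 with the length trend removed. Of 13 MHC class II genes 9 had too few reads to be tested, and edgeR, DESeq2 and limma-voom called 0 of the other 4, with 1 at an unadjusted p under 0.05 in edgeR. HLA-DQB1, the most abundant, had 13.4 and 36.2 CPM in pos and 20.0, 19.5 and 19.5 CPM in neg (0.33, SE 0.41, edgeR adjusted p = 0.579), and was at -0.58 with pos replicate 1 as the lone pos library and at -0.30 once the length trend was removed. The class II transactivator gene CIITA, a relative of NLRC5, had 1 read in neg replicate 2 and 0 in the other libraries.

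**Figure D5:**
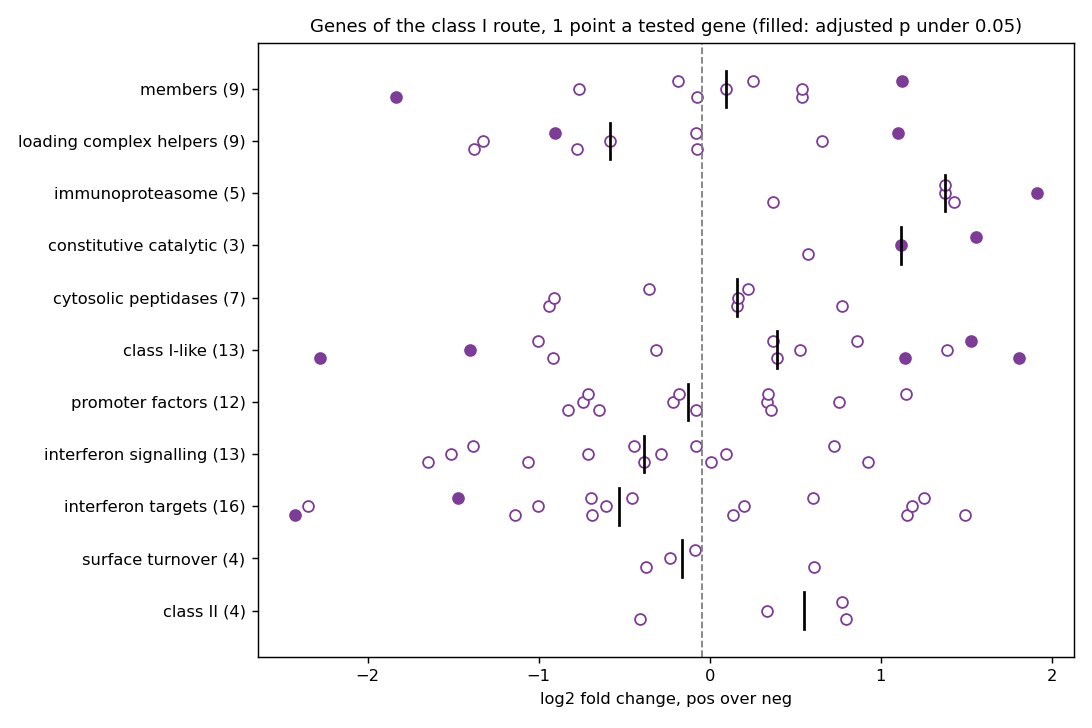
log2 fold changes, pos over neg (x axis), of every tested gene in 11 groups of the class I route (rows, with the number tested), where filled points have an adjusted p under 0.05, black bars are group medians and the dashed line is the median of all tested genes. The 8 proteasome genes lie to the right of the dashed line (without the length trend PSMB5 is at -0.33 and PSMB9 at -0.62, and by library size alone PSMB9 is at -0.12), and class I-like genes hold called genes on both sides.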

How the data were processed

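RNA from SW620 cells was made into TruSeq Stranded mRNA libraries, per the labels' protocols. The authors deposited raw counts per gene symbol for 5 libraries, after alignment with STAR, per the labels' protocols. CASAVA 1.8.2, STAR 2.5.2b and DESeq2 1.24.0 are named in the submitters' processing notes. The build is hg19 in those notes and GRCh38 in the extraction protocol, so coordinates come only from GENCODE 44 (GRCh38). Which program counted reads, and whether by strand, is not given in the sources used here.

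Of 25435 rows 92 were spike-ins, left out. The deposited counts entered edgeR 4.0.16 (R 4.3.3), where filterByExpr (minimum count 10, minimum total 15) kept 13604 genes, followed by TMM scaling, glmQLFit and glmQLFTest on pos against neg, two-sided, Benjamini-Hochberg at 0.05. SE is the log2 fold change over the square root of F. The length trend (lowess, span 0.3, of log2 CPM with prior count 2 on canonical transcript length, for 97.5% of tested genes) was removed as an offset. It was centred on the midpoint of the group means, so it also holds differences between the groups. Tested on simulated data with 2 pos and 3 neg libraries (13364 genes), edgeR found 68 of the 98 genes given a 4-fold change, 1 of the 97 given a 2-fold change, and 4 that had none. The simulation gave each gene the same dispersion in both groups and held no length trend. It therefore lacks the wider spread of the pos pair, and its recovery may not hold for these libraries. At these depths 3 counts equal 0.189 to 0.316 CPM. Chi-square per degree of freedom was 155 for the pos pair and 6.30 to 23.4 for neg pairs, so every library was counted separately.

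Named were all 9 genes and, from each list, up to 4 called genes by smallest p and the uncalled gene of highest mean CPM. The members and lists were chosen with earlier results of these data known. Alternatives were DESeq2 1.42.0, limma-voom 3.58.1, other scalings and filters, a replicate block, each library left out, and removal of length and GC trends. DESeq2 without single neg libraries was added after the data were seen.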

Additional observations from a re-analysis of the deposited data

How the results depend on the processing

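The count of called genes (1251), of the 9 class I genes called (2) and of listed route genes called (12) were recomputed under each alternative. DESeq2 called 3161 genes, 3 class I genes and 29 listed genes. Library size only called 606 genes (148 higher and 458 lower, against 689 and 562) and 0 class I genes. Length removal called 1910 genes and 19 listed genes, and length and GC removal 3545 and 32. An adjusted p of 0.01 left 1 gene and 0 class I genes. Library numbers 1 and 3 are not said to pair samples (the deviations of same-numbered libraries correlated at -0.469 across genes), and the replicate block left 87 genes, 0 class I genes and 0 listed genes, or with length removal 414, 0 and 5. Leaving out each library gave 0 to 8819 genes, 0 to 6 class I genes and 0 to 54 listed genes. The high counts come from fits with a lone pos library, assumed to vary like neg, which measure that library. With length removal these fits gave 7237 genes, 4 class I genes and 51 listed genes without pos replicate 1, and 4986, 6 and 41 without pos replicate 3. DESeq2 without neg replicates 1, 2 and 3 called 1, 0 and 1 class I genes, and 7 listed genes without neg replicate 3. The HLA-B share kept its direction with each library left out, which was fixed in advance because the pos and neg shares do not overlap.

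Signs turned for these log2 fold changes. With library size only HLA-E was at -0.35, TAP1 at -0.12 and HLA-DQB1 at -0.17. With length removal HLA-C was at -0.084, HLA-E -0.060, PSMB5 -0.33, WWP2 0.28 and HLA-DQB1 -0.30. With length and GC removal they were at -0.13, -0.15, -0.40, 0.21 and -0.37, and with length removal and the replicate block at -0.064, -0.11, -0.34, 0.28 and -0.37. With length removal and without pos replicate 1, B2M was at -0.10, TAP2 0.24, PSMB5 -0.30 and WWP2 0.43. With length removal and without pos replicate 3, HLA-C was at -0.31, HLA-E -0.40, PSMB5 -0.35, WWP2 0.12 and HLA-DQB1 -0.79. DESeq2 without neg replicate 1 gave HLA-B 0.10 and HLA-F 0.048. Over the single libraries left out, HLA-B ran from -0.71 to 0.40, HLA-C from -0.089 to 1.01, HLA-E from -0.35 to 0.47, HLA-F from -0.40 to 0.032, RELA from -0.50 to 0.048 and HLA-DQB1 from -0.58 to 0.93. The cause was not tested. With 10 reads of NLRC5 in pos replicate 3, depth limits its fold change more than that of the other 8 genes.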

Other observations

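Some genes had a profile over the 5 libraries close to that of a class I gene. Among 10861 genes with a mean of at least 5 CPM, the nearest to B2M in log2 CPM, each gene centred on its own mean, were SUMO3, TAPBPL, TEX30, CENPN and FAM192A, at root mean square differences of 0.041 to 0.052 against a median of 0.633 over the genes compared. The nearest to TAP1 were DPH1, PLD6 and SLC30A3, at 0.041 to 0.064 against a median of 0.454. The 5 libraries share depth and length trends, and nearness says nothing of a common role. PSMB9, which overlaps TAP1 on the opposite strand, had 5.99 and 16.4 CPM in pos replicates 1 and 3 and 9.44, 9.18 and 7.23 CPM in neg replicates 1, 2 and 3.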
